A study of Mus musculus with 12 samples.

Results

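The transcripts of 10 genes of the hypoxia response were followed across 12 mouse samples. The 5 regulators were Hif1a, Epas1, Hif3a, Egln1 and Egln3, and the 5 targets were Bnip3, Ankrd37, Slc2a1, Adm and Ndrg1. They were taken by gene symbol from a table of 55862 genes, and each symbol matched 1 row. All are protein-coding genes, and spans given with them are those of the table, which follow GRCm38. Levels are given as FPKM, fragments scaled for gene length and library size, so that levels of different genes can be set side by side. Total RNA had been sequenced in 4 groups of 3 samples. ASTs were primary cortical astrocytes of newborn C57BL/6 pups, grown as a monolayer with serum and taken at 0 days of incubation. A-iSCs were such astrocytes after 5 days as floating spheres on agarose. P56-NPCs came from the subependymal zone of C57BL/6J mice at postnatal day 56, and P0-NPCs from the hippocampus of C57BL/6J mice at postnatal day 0. No genotype other than wild type and no transgene was named for any group, and for both NPC groups the methods describe dissociation and centrifugation of tissue and name no sort for precursor cells. The methods also state that P56-NPCs were resuspended in culture medium, and not whether either NPC group was cultured before sequencing. The NPC groups thus differ from ASTs and A-iSCs in tissue and handling as well as in cell type. The labels do not say which samples came from separate cultures or animals, so the p-values measure the spread between these samples only.

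Cells adjust gene expression to oxygen through the hypoxia-inducible factors. The alpha subunits encoded by Hif1a, Epas1 and Hif3a pair with a constant partner, Arnt, on short DNA elements near their target genes. In the presence of oxygen, prolyl hydroxylases such as those encoded by Egln1 and Egln3 mark the alpha subunits for destruction by the Vhl ubiquitin ligase, and at low oxygen the marking slows and target genes are switched on. Much of this control acts on the alpha proteins, so that the transcript level of an alpha subunit is not a measure of its activity. Neither oxygen nor protein was analysed here.

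Each library held between 17077780 and 24452419 fragments assigned to genes, and a count of 0 allows up to 3 fragments, or 0.103 to 0.187 FPKM at a gene length of 1 kilobase, counting error only. The labels were set against cell type markers. The summed level of 8 astrocyte markers was 143 to 161 FPKM in ASTs, 1211 to 2466 in A-iSCs, 2834 to 3072 in P56-NPCs and 238 to 303 in P0-NPCs. Of 6 smooth muscle and pericyte markers, Acta2 averaged 1848 FPKM in ASTs and 3.04 to 41.6 in the other groups, and Pdgfrb 11.1 FPKM in ASTs, while the pericyte markers Rgs5, Kcnj8, Abcc9 and Vtn were each under 1 FPKM in ASTs and between 3.604 and 56.7 in P0-NPCs. The P56-NPCs carried 10825 to 12337 FPKM of 6 oligodendrocyte markers, against at most 75.9 in any other sample. The 7 neural precursor markers summed to 316 to 365 FPKM in ASTs and A-iSCs, 180 to 197 in P56-NPCs and 172 to 177 in P0-NPCs. In ASTs and A-iSCs these sums rested mostly on Sox2 and Nes, and Hopx was lower in ASTs (2.51 FPKM) than in P56-NPCs (67.4). Against ASTs, 2 of 6 tested precursor markers were higher and 3 lower in P56-NPCs, and in P0-NPCs 5 of 7 were higher and 2 lower. Markers of neurons reached 852 to 1030 FPKM in P0-NPCs. Mitochondrial genes took 16.5% to 17.6% of the fragments in P56-NPCs and 2.94% to 7.03% in the other 9 libraries, and their part in the differences of P56-NPCs from other groups was not tested. In such bulk samples fewer cells of a type and less RNA per cell cannot be told apart.

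Between ASTs and A-iSCs the hypoxia genes moved in both directions (A-iSC against AST, limma, adjusted p under 0.05 over 14087 tested genes). Of the 9 members that could be tested, Egln3, Bnip3, Ankrd37 and Slc2a1 rose and Epas1, Egln1, Adm and Ndrg1 fell, 4 each way. Among all tested genes 25.2% rose and 29.6% fell. The median log2 fold change of the 9 members was -0.35, beside -0.06 over all genes tested. Hif1a did not pass the test, and Hif3a, under a mean of 1 FPKM in both groups, was not tested. Ankrd37 entered the test only through its level in A-iSCs. The question behind this comparison is how the astrocytes changed in the spheres, with the NPC groups as the reference for neural precursors.

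**Figure D1:**
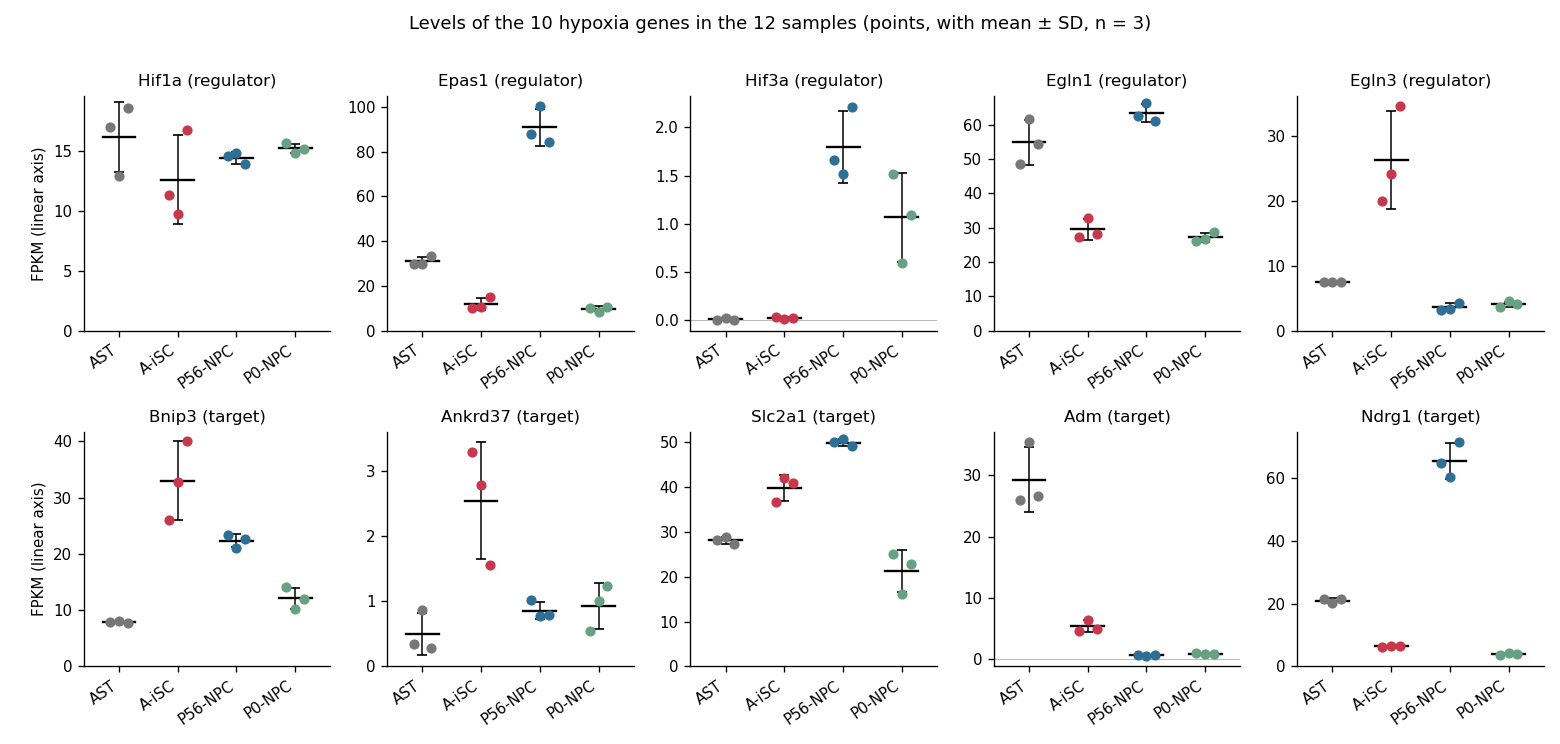
Each panel plots 1 of the 10 genes, with FPKM on a linear vertical axis, the 4 groups on the horizontal axis, a point for each of the 3 samples and the mean with its SD as bars. Egln3, Bnip3 and Ankrd37 sit highest in A-iSCs, Adm in ASTs, and Epas1, Hif3a, Slc2a1 and Ndrg1 in P56-NPCs, whereas the points of Hif1a overlap across all 4 groups.

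Among the alpha subunits, Hif1a (chr12:73901375-73947530, plus strand), the broadly expressed subunit of the acute response, had similar transcript levels in all 4 groups. It measured 17.0, 12.9 and 18.6 FPKM in ASTs and 11.3, 9.72 and 16.7 in A-iSCs. It measured 14.6, 14.8 and 13.9 FPKM in P56-NPCs and 15.6, 14.8 and 15.2 in P0-NPCs. The groups overlapped, and none of the 6 pairwise comparisons passed the test, with a log2 difference of -0.35 (SE 0.22, limma adjusted p = 0.206) between A-iSCs and ASTs. Replicate 3 held the highest value of the A-iSCs, and without it the difference was -0.56 and passed the test (adjusted p = 0.0249). Leaving it out also made A-iSCs lower than P56-NPCs (-0.42, adjusted p = 0.00363) and P0-NPCs (-0.49, adjusted p = 0.00169), and leaving out AST replicate 2 made P56-NPCs and P0-NPCs lower than ASTs (-0.28 and -0.21, adjusted p = 0.00536 and 0.0233). With columns scaled by library size alone, Hif1a passed as lower in P56-NPCs than in ASTs (-0.46, adjusted p = 0.0179) and P0-NPCs (-0.66, adjusted p = 2.42e-05).

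Epas1 (chr17:86753700-86833410, plus strand) encodes a second alpha subunit, prominent in endothelial cells and also in astrocytes, and it varied widely. Its level was 29.8, 29.7 and 33.4 FPKM in ASTs and 10.1, 10.8 and 14.96 in A-iSCs. It was 87.9, 100.3 and 84.4 FPKM in P56-NPCs and 10.4, 8.47 and 10.7 in P0-NPCs. Every P56-NPC sample lay above every AST sample, every AST sample lay above all A-iSC and P0-NPC samples, and the last 2 groups overlapped. The mean was 2.58-fold lower in A-iSCs than in ASTs, a log2 fold change of -1.32 (SE 0.16, adjusted p = 0.000398) on the log2(FPKM + 1) scale, as all fold changes below. P56-NPCs exceeded ASTs by 1.52 (SE 0.09, adjusted p = 5.25e-06) and P0-NPCs by 3.08 (SE 0.10, adjusted p = 2.02e-07) on that scale. A-iSCs and P0-NPCs differed by 0.25 (SE 0.16, adjusted p = 0.220), within the spread of the samples. The 7 endothelial markers summed to 5.25 to 5.78 FPKM in P56-NPCs, where Epas1 was highest, and to 73.8 to 76.5 in P0-NPCs, where its mean was lowest, and the part of endothelial cells in these levels was not tested.

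Hif3a (chr7:17031507-17062427, minus strand), whose products include inhibitory forms of the alpha subunit, was nearly silent in ASTs and A-iSCs. It gave 0, 2 and 0 fragments in the AST libraries and 4, 1 and 4 in those of A-iSCs, at most 0.0296 FPKM. In P56-NPCs it measured 1.66, 1.51 and 2.22 FPKM, and in P0-NPCs 1.52, 0.594 and 1.09. All 6 NPC samples thus lay above all 6 AST and A-iSC samples. The fragment rate in P56-NPCs was 335 times that in ASTs (exact 95% interval 92.4 to 2773, counting error only), and that in P0-NPCs was 192 times (53.0 to 1592). The rate in A-iSCs against ASTs was 3.54 (0.732 to 33.6), which includes no difference at this depth. Hif3a passed the test as higher in P56-NPCs than in P0-NPCs by 0.45 (SE 0.18, adjusted p = 0.0480), with overlapping samples. That call held in only 4 of 15 alternative analyses, and was lost without any 1 of 5 of the 6 libraries (P56-NPC replicates 1, 2 and 3 and P0-NPC replicates 2 and 3, adjusted p from 0.0547 to 0.135).

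The 2 prolyl hydroxylases went in opposite directions in the spheres. Egln1 (chr8:124908587-124949324, minus strand), the main oxygen sensor of the family, measured 48.4, 61.6 and 54.5 FPKM in ASTs and 27.3, 33.0 and 28.3 in A-iSCs. Its level was 62.5, 66.4 and 61.2 FPKM in P56-NPCs and 26.1, 26.6 and 28.8 in P0-NPCs. All A-iSC samples lay below all AST samples, a log2 fold change of -0.87 (SE 0.14, adjusted p = 0.00156). In the order of levels, P56-NPCs and ASTs overlapped (difference 0.21, SE 0.10, adjusted p = 0.0956), as did A-iSCs and P0-NPCs (0.11, SE 0.11, adjusted p = 0.417). Without AST replicate 2, P56-NPCs passed as higher than ASTs (0.30, adjusted p = 0.00716).

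Egln3 (chr12:54178981-54203860, minus strand), the hydroxylase that is itself a strong target of the factors, was highest in A-iSCs. It measured 7.46, 7.45 and 7.50 FPKM in ASTs and 19.98, 24.2 and 34.6 in A-iSCs. It measured 3.25, 3.35 and 4.36 FPKM in P56-NPCs and 3.73, 4.52 and 4.05 in P0-NPCs. The A-iSC samples overlapped no other group, and the ASTs, nearly equal among themselves, lay between them and both NPC groups. A-iSCs exceeded ASTs 3.51-fold in the mean, a log2 fold change of 1.65 (SE 0.19, adjusted p = 0.000339), and they exceeded P56-NPCs by 2.52 (SE 0.20, adjusted p = 4.51e-05) and P0-NPCs by 2.39 (SE 0.19, adjusted p = 2.38e-05). The 2 NPC groups differed by -0.14 (SE 0.11, adjusted p = 0.277). Egln3 stood at 0.138 ± 0.0166 of Egln1 in ASTs and at 0.896 ± 0.283 in A-iSCs (SD, n = 3), reaching 1.22 in replicate 3, so that the 2 transcripts became similar in abundance.

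**Figure D2:**
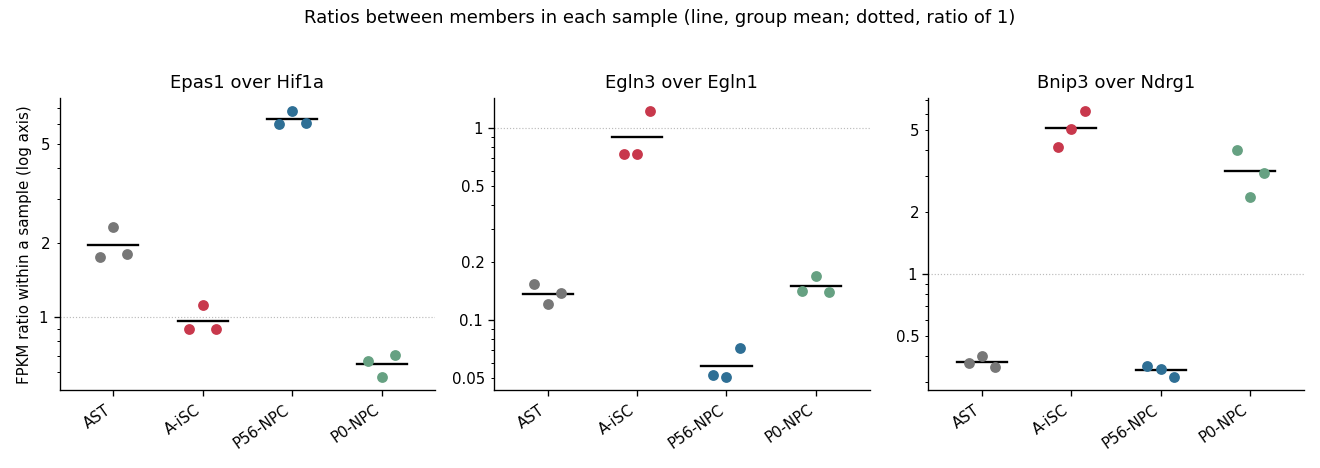
Each point is the ratio of 2 FPKM values within a sample, on a log axis, for Epas1 over Hif1a, Egln3 over Egln1 and Bnip3 over Ndrg1, with the group mean as a line and a dotted line at 1. Egln3 over Egln1 was at least 0.732 in A-iSCs and at most 0.170 in the other 9 samples, while Epas1 over Hif1a ran from 0.573 in P0-NPCs to 6.76 in P56-NPCs.

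The balance of the alpha subunits differed as well. Epas1 transcripts stood at 1.95 ± 0.304 times those of Hif1a in ASTs, 0.968 ± 0.128 in A-iSCs, 6.29 ± 0.402 in P56-NPCs and 0.648 ± 0.0684 in P0-NPCs (SD, n = 3). The 4 ranges did not overlap. Their order was that of the means of Epas1.

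The factors bind a short core in DNA, ACGTG or GCGTG, and both were searched on either strand in the 250 bases before the RefSeq gene start on GRCm38.p6. Windows were held for 8 of the 10 members, those for Epas1 and Ndrg1 not being among them. All 8 contained at least 1 match, beside 38.6% of 32851 windows of the same length (16.6% with ACGTG and 28.2% with GCGTG). After overlapping matches had been joined, Bnip3 held 4 separate stretches and Ankrd37 held 3, beside 1.495% of all windows with 4 or more and 4.65% with 3 or more. Egln3 held 1, and Hif1a, Hif3a, Egln1, Slc2a1 and Adm held 2 each. The windows of the 3 members with the largest rises in A-iSCs and of Adm, which had the largest fall, are shown 5′ to 3′ on the strand of each gene, with matches on either strand in capitals. They lie at chr7:138909507-138909756 (minus strand) for Bnip3, chr8:45999851-46000100 (minus) for Ankrd37, chr12:54203875-54204124 (minus) for Egln3 and chr7:110627407-110627656 (plus) for Adm.
Bnip3: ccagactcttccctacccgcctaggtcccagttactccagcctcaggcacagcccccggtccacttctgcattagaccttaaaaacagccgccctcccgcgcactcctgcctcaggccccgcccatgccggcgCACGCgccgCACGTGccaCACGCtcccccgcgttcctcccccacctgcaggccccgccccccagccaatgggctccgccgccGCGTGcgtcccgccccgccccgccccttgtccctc
Ankrd37: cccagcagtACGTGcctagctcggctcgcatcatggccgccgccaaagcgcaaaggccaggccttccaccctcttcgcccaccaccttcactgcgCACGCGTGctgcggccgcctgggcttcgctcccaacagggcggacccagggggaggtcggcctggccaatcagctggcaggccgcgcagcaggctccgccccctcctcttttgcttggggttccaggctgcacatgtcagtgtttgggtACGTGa
Egln3: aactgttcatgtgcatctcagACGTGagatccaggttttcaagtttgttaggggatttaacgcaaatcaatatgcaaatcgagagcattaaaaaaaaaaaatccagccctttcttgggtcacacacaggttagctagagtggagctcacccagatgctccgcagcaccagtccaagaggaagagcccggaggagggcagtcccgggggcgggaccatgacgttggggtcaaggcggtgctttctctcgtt
Adm: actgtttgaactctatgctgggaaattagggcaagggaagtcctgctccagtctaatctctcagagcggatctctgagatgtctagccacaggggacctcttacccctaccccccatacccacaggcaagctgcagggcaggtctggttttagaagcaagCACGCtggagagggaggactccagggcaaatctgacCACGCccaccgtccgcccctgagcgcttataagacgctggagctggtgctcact
In Bnip3, 3 of the 4 stretches lay close together between 117 and 95 bases before the start, the middle of them a palindrome that is read as ACGTG on both strands. The last stretch of Ankrd37 ended 2 bases before its RefSeq start, which lies inside the longer gene span of the table. The windows of Ankrd37 and of Hif1a (chr12:73907617-73907866, plus strand) lie wholly inside these spans, and those of Bnip3, Egln1 and Slc2a1 in part. Members that rose and members that fell both held matches, and a match describes letters in these windows, not binding.

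**Figure D3:**
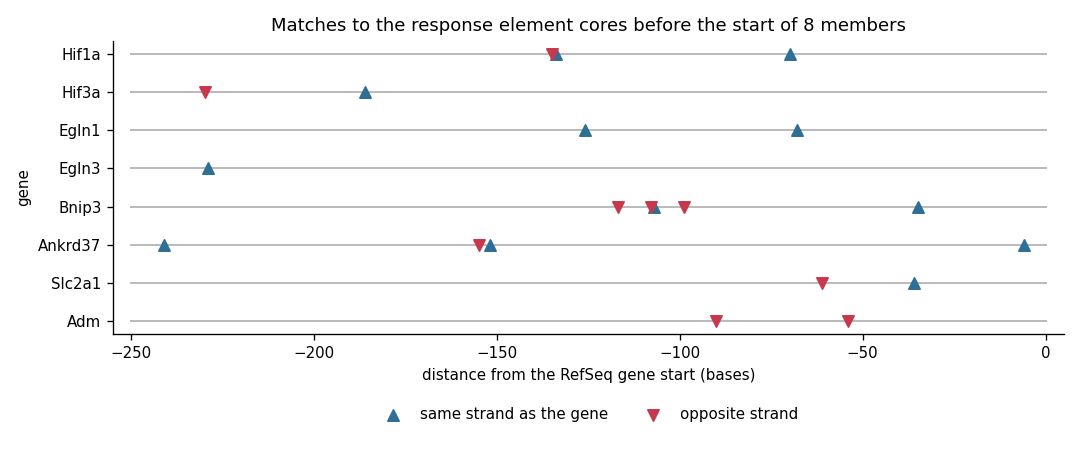
Each row is the 250 bases before the RefSeq start of a member, with the distance from the start in bases on the horizontal axis and a triangle at the start of each match, pointing up for the strand of the gene and down for the opposite strand. Bnip3 has 5 matches and Ankrd37 4, and the other 6 genes have 1 to 3.

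Among the targets, Bnip3 (chr7:138890836-138909519, minus strand), which marks mitochondria for removal by autophagy, had the largest rise in A-iSCs on the log2(FPKM + 1) scale. Its level was 7.95, 8.12 and 7.68 FPKM in ASTs and 26.1, 32.8 and 40.1 in A-iSCs. It was 23.4, 21.02 and 22.7 FPKM in P56-NPCs and 14.03, 10.2 and 12.02 in P0-NPCs. No 2 of the 4 groups overlapped, and each step in their order passed the test, the step from P0-NPCs to P56-NPCs (0.85, SE 0.11, adjusted p = 0.000202) falling to 0.25 (adjusted p = 0.0852) with scaling by library size alone. A-iSCs exceeded ASTs 4.17-fold in the mean, a log2 fold change of 1.91 (SE 0.16, adjusted p = 7.15e-05), with a range of 1.76 to 2.12 over 15 alternative analyses. They exceeded P0-NPCs by 1.37 (SE 0.18, adjusted p = 0.000322) and P56-NPCs by 0.52 (SE 0.16, adjusted p = 0.0244). The last call was lost without A-iSC replicate 2 (adjusted p = 0.0661) and without P56-NPC replicate 1, 2 or 3 (0.0598, 0.0862 and 0.0629). An antisense gene, Gm45507, covers 22.3% of the exon bases of Bnip3 and was listed at 0 in all samples.

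Ankrd37 (chr8:45996902-46005707, minus strand), an ankyrin repeat protein known as a direct target, was the least abundant of the rising genes. It gave 9, 27 and 8 fragments in ASTs (0.349, 0.865 and 0.280 FPKM) and 102, 102 and 64 in A-iSCs (3.29, 2.79 and 1.55 FPKM). In P56-NPCs it measured 1.01, 0.769 and 0.789 FPKM, and in P0-NPCs 0.540, 1.004 and 1.23. The A-iSC samples lay above all others, while the remaining groups overlapped and were under the level required for a test between them. The rise over ASTs was 5.11-fold in the mean and 1.23 on the log2(FPKM + 1) scale (SE 0.23, adjusted p = 0.00349), and with a pseudocount of 0.1 it came to 2.21. Against P56-NPCs and P0-NPCs the difference was 0.90 (SE 0.20, adjusted p = 0.00618) and 0.86 (SE 0.22, adjusted p = 0.0101), and with a pseudocount of 0.1 it came to 1.41 and 1.37. Exons of Lrp2bp on the opposite strand cover 22.7% of those of Ankrd37, and those of Ufsp2 a further 3.70%, so that reads of these genes may be counted together. Lrp2bp stood at 0.0889 FPKM in A-iSCs and 0.174 in ASTs, and Ufsp2 at 8.35 and 9.35.

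Slc2a1 (chr4:119108711-119137983, plus strand), the glucose transporter of astrocytes and of the vessels of the brain, rose to a smaller extent. It measured 28.1, 28.9 and 27.4 FPKM in ASTs and 36.6, 42.0 and 40.9 in A-iSCs. It measured 49.97, 50.6 and 49.1 FPKM in P56-NPCs and 24.99, 16.1 and 22.9 in P0-NPCs. The 4 groups did not overlap, in the order P56-NPCs, A-iSCs, ASTs and P0-NPCs. The rise from ASTs to A-iSCs was 1.42-fold in the mean, a log2 fold change of 0.49 (SE 0.11, adjusted p = 0.00786). A-iSCs exceeded P0-NPCs by 0.89 (SE 0.17, adjusted p = 0.00229), and P56-NPCs exceeded P0-NPCs by 1.21 (SE 0.15, adjusted p = 0.000141). The smaller steps were less firm. A-iSCs were below P56-NPCs by -0.32 (SE 0.10, adjusted p = 0.0232), a call that held in 6 of 15 alternatives, was lost without A-iSC replicate 1 (adjusted p = 0.0666) or P56-NPC replicates 1, 2 or 3 (0.0877, 0.0771 and 0.0655), and turned to 0.23 (adjusted p = 0.0817) when columns were scaled by library size alone. P0-NPCs were below ASTs by -0.41 (SE 0.15, adjusted p = 0.0392), also in 6 of 15 alternatives, and this call was lost without AST replicates 1, 2 or 3 (0.0794, 0.0759 and 0.0668) and without P0-NPC replicates 2 or 3 (0.0596 and 0.0535). With scaling by library size alone it was -0.13 (adjusted p = 0.465). The 7 endothelial markers summed to 2.57 to 3.796 FPKM in A-iSCs and to 5.62 to 6.05 in ASTs, and of the 4 tested 2 fell and the other 2 were not called. The part of endothelial cells in the level of Slc2a1 was not tested.

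Adm and Ndrg1, 2 further targets, fell in the spheres. Adm (chr7:110627661-110629820, plus strand) encodes adrenomedullin, a secreted peptide that widens blood vessels. It measured 25.9, 35.4 and 26.5 FPKM in ASTs and 4.66, 6.47 and 4.93 in A-iSCs. It measured 0.747, 0.577 and 0.712 FPKM in P56-NPCs and 0.999, 0.933 and 0.830 in P0-NPCs. Each group was separate from the next. A-iSCs were 5.47-fold below ASTs in the mean, a log2 fold change of -2.25 (SE 0.17, adjusted p = 4.06e-05), and still above P56-NPCs by 1.91 (SE 0.13, adjusted p = 2.03e-05) and P0-NPCs by 1.72 (SE 0.13, adjusted p = 2.05e-05). At these low levels the pseudocount matters, since the mean was 7.88-fold and 5.81-fold higher, and with a pseudocount of 0.1 the differences came to 2.80 and 2.41. In the comparisons with NPCs, Adm passed the filter only through ASTs or A-iSCs. The 2 tested markers of smooth muscle and pericytes, of 6 listed, and the 3 tested fibroblast markers, of 5 listed, also fell from ASTs to A-iSCs. The summed levels, 1702 to 2123 against 30.3 to 62.5 FPKM and 147 to 198 against 4.67 to 5.73 FPKM, rested mostly on Acta2 and Col1a1. The untested markers were under 1 FPKM in both groups, and of these Rgs5, Kcnj8, Abcc9, Vtn and Lum had higher means in A-iSCs. No marker of either list was at 0 throughout a group. In P0-NPCs, where Adm was also below ASTs, 4 of 5 fibroblast markers were higher than in ASTs and 1 lower. Of the 6 smooth muscle and pericyte markers 4 were higher there and 1 lower. In P56-NPCs against ASTs, 1 fibroblast marker was higher and 3 lower, and 2 smooth muscle and pericyte markers were higher and 2 lower. The part of these cells in the levels of Adm was not tested.

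Ndrg1 (chr15:66929318-66969640, minus strand), a stress-responsive protein abundant in myelinating cells, measured 21.4, 20.1 and 21.5 FPKM in ASTs and 6.29, 6.51 and 6.53 in A-iSCs. It measured 64.8, 60.3 and 71.5 FPKM in P56-NPCs and 3.51, 4.29 and 3.88 in P0-NPCs. Samples within a group were close together and no 2 groups overlapped. The fall from ASTs to A-iSCs was 3.26-fold in the mean, a log2 fold change of -1.56 (SE 0.10, adjusted p = 1.88e-05). P56-NPCs exceeded ASTs by 1.59 (SE 0.08, adjusted p = 2.34e-06) and P0-NPCs by 3.76 (SE 0.09, adjusted p = 5.20e-08), and A-iSCs exceeded P0-NPCs by 0.61 (SE 0.11, adjusted p = 0.00143). All 6 oligodendrocyte markers were higher in P56-NPCs than in ASTs, with sums of 10825 to 12337 against 17.6 to 19.4 FPKM, and Mobp was at 0 in all ASTs. The part of oligodendrocytes in the level of Ndrg1 in P56-NPCs was not tested, nor was that of the higher mitochondrial share of these libraries. Between ASTs and A-iSCs this list went the other way, since all 3 tested markers rose in A-iSCs (sum 54.4 to 75.9 FPKM) where Ndrg1 fell. Bnip3 stood at 0.377 ± 0.0240 of Ndrg1 in ASTs and at 5.11 ± 0.9997 in A-iSCs (SD, n = 3), so that these 2 targets exchanged rank.

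**Figure D4:**
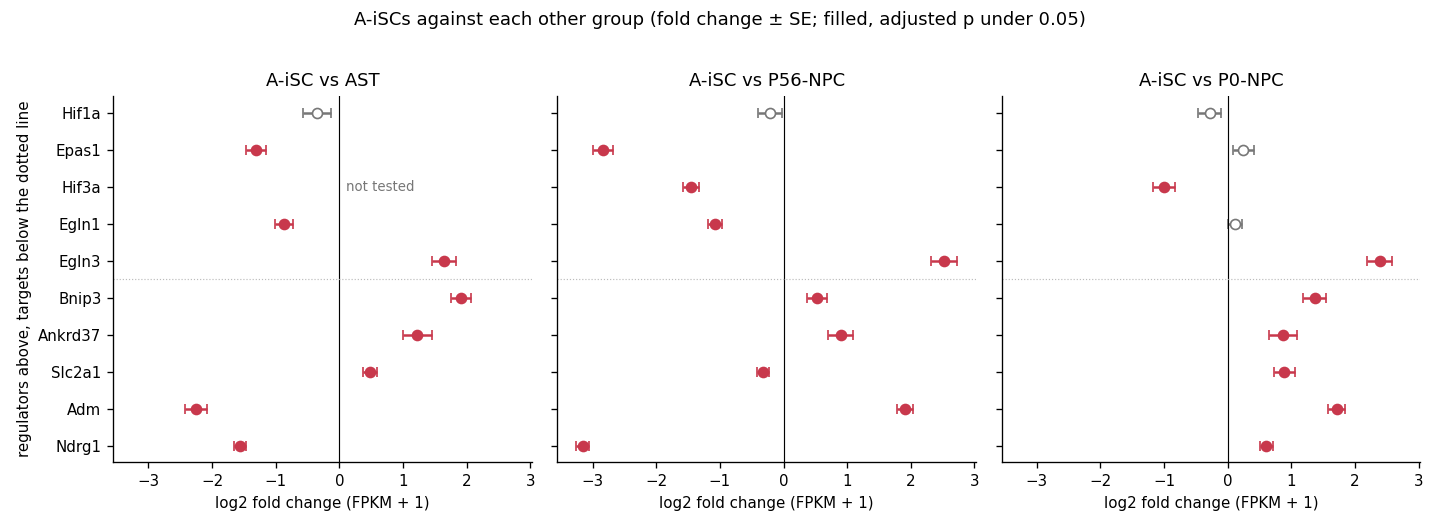
Each point is the log2 fold change of a member on the log2(FPKM + 1) scale with its SE, in A-iSCs against ASTs (left), P56-NPCs (middle) and P0-NPCs (right), filled where the limma adjusted p was under 0.05, with regulators above and targets below the dotted line. Egln3, Bnip3 and Ankrd37 lie to the right of 0 in all 3 panels, and Adm and Ndrg1 lie to the left against ASTs but to the right against P0-NPCs.

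Against the NPC groups the members were called as follows. These comparisons share the A-iSC or AST samples with the others, so they are not independent of each other. In A-iSCs against P0-NPCs, 6 of 10 members were higher (Egln3, Bnip3, Ankrd37, Slc2a1, Adm and Ndrg1) and 1, Hif3a, was lower, whereas 31.5% of 15170 tested genes were higher and 33.6% lower. All 5 targets were among the 6. In A-iSCs against P56-NPCs, 4 of 10 members were higher (Egln3, Bnip3, Ankrd37 and Adm) and 5 were lower (Epas1, Hif3a, Egln1, Slc2a1 and Ndrg1), beside 30.1% higher and 30.9% lower of 15044 genes. Hif3a passed the filter in both comparisons only through the NPCs, and Ankrd37 and Adm only through A-iSCs.

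In P56-NPCs against ASTs, 5 of 9 tested members were higher (Epas1, Hif3a, Bnip3, Slc2a1 and Ndrg1) and 2 were lower (Egln3 and Adm), beside 39.1% and 39.8% of 15146 genes. Hif3a passed the filter only through the NPCs, here and in the next comparison. P0-NPCs against ASTs gave 2 of 9 higher (Hif3a and Bnip3) and 6 lower (Epas1, Egln1, Egln3, Slc2a1, Adm and Ndrg1), beside 38.1% and 40.9% of 15010 genes. In P56-NPCs against P0-NPCs, 6 of 8 tested members were higher (Epas1, Hif3a, Egln1, Bnip3, Slc2a1 and Ndrg1) and 0 were lower by limma, beside 39.7% and 39% of 15394 genes. Of the 2 tested members not called there, Hif1a and Egln3, neither had an unadjusted p under 0.05. When columns were scaled by library size alone, Hif1a and Egln3 passed as lower in P56-NPCs (-0.66 and -0.63), as did Adm, which then entered the test (-0.46), and Bnip3 and Hif3a no longer passed as higher (0.25 and 0.09). The same scaling moved the median log2 fold change of all genes in that comparison by -0.53.

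Bnip3 rose from ASTs in A-iSCs and in both NPC groups, and Adm fell in all 3. Ankrd37, which rose in A-iSCs, was not tested between ASTs and the NPC groups, where its mean was 1.72-fold higher in P56-NPCs and 1.85-fold higher in P0-NPCs than in ASTs, and it entered that test and passed as higher in P0-NPCs when columns were scaled by library size alone (0.50, adjusted p = 0.0378) and without P0-NPC replicate 1 (0.52, adjusted p = 0.0377), but not with no filter on low values (0.36, adjusted p = 0.193). Egln3 rose in A-iSCs and fell in both NPC groups. Epas1 and Ndrg1 moved in opposite directions in the 2 NPC groups relative to ASTs, as did Slc2a1, with the less firm fall in P0-NPCs given above.

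Beyond the 10 members, 61 genes of the pathway were read from 3 lists. Of the 14 genes of the HIF machinery, 1 rose from ASTs to A-iSCs, 3 fell and 10 were not called, with a median log2 fold change of -0.11. Over all tested genes 25.2% rose, 29.6% fell and the median was -0.06. Vhl, the recognition subunit of the ligase that destroys the alpha subunits, rose from 10.6 ± 0.399 to 19.3 ± 5.12 FPKM (log2 fold change 0.78, adjusted p = 0.00787). Cited2, which competes with the alpha subunits for their coactivators, fell from 73.3 ± 1.81 to 21.8 ± 4.45 FPKM (-1.72, adjusted p = 0.000127). Eloc and Cul2, partners of Vhl in the ligase, fell by 0.81 and 0.62 on the log2 scale. Arnt, Arnt2, Egln2 and Hif1an, the asparaginyl hydroxylase that restrains the factors, differed by between -0.06 and 0.07 and were not called.

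The 18 genes of glycolysis and lactate handling gave 7 higher, 6 lower and 5 not called in A-iSCs against ASTs (median -0.02), beside the same shares and median over all genes. Slc16a3, which exports lactate, rose from 0.609 ± 0.0270 to 7.30 ± 1.30 FPKM (2.36, adjusted p = 1.37e-05), having passed the filter only through A-iSCs. Pdk1, which holds pyruvate back from the mitochondria, rose by 1.51 and Pfkl, a phosphofructokinase, by 1.23. In contrast Pgam1, Hk2 and Pgk1, enzymes of the same pathway, had log2 fold changes of -1.02, -0.89 and -0.88. Gapdh ranged from 2.73 to 54.5 FPKM within ASTs and from 1.99 to 70.8 within A-iSCs and was not called. Several of these enzymes, Gapdh, Pgk1, Pgam1 and Aldoa among them, have near-identical processed copies in the genome, and their values are uncertain where reads are shared. Against P0-NPCs the list was called higher in 13 of 18 genes and lower in 1 (median 1.09), beside 31.5% and 33.6% of all genes (median -0.02). Against P56-NPCs it was called higher in 11 and lower in 2 (median 0.53), beside 30.1% and 30.9% (median 0.03). The genes called higher in each of these comparisons include Slc16a3, which passed the filter there only through A-iSCs. They also include Gapdh, with the wide spread within A-iSCs given above. Cell type markers differed in the same comparisons. Against P0-NPCs 6 of 8 astrocyte and all 6 microglial markers were higher. All 7 neuron, all 5 fibroblast and 6 of 7 endothelial markers were lower there. Against P56-NPCs all 6 oligodendrocyte and 6 of 7 neuron markers were lower. Of the 8 astrocyte markers 2 were higher and 5 lower than in P56-NPCs, and of the 6 microglial markers 3 were higher and 2 lower. The part of these cells was not tested.

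Of 29 other targets, 24 were tested between A-iSCs and ASTs, and 8 rose, 4 fell and 12 were not called (median 0.15), beside 25.2% and 29.6% of all genes and their median of -0.06. The largest rises were those of Ppp1r3c, a glycogen-targeting subunit of protein phosphatase (2.24 ± 0.294 to 25.8 ± 14.7 FPKM, log2 fold change 2.92, adjusted p = 0.000363), of Mxi1, an antagonist of Myc (3.24 ± 0.262 to 16.2 ± 0.278 FPKM, 2.03, adjusted p = 8.66e-06), and of Angptl4, an inhibitor of lipoprotein lipase (0.437 ± 0.0153 to 3.64 ± 0.675 FPKM, 1.68, adjusted p = 5.53e-05). Angptl4 passed the filter only through A-iSCs. Vegfa, the main angiogenic factor, rose from 15.7 ± 1.33 to 52.6 ± 18.3 FPKM (1.63, adjusted p = 0.000787). The deepest falls included those of a pair of genes of collagen. Loxl2, a collagen cross-linker, fell from 32.7 ± 1.64 to 1.69 ± 0.185 FPKM (-3.65, adjusted p = 3.54e-06), and P4ha1, a collagen prolyl hydroxylase, from 86.9 ± 3.51 to 29.1 ± 2.88 FPKM (-1.55, adjusted p = 5.02e-05). Tfrc, the transferrin receptor, fell from 23.1 ± 4.97 to 8.74 ± 1.19 FPKM (-1.29, adjusted p = 0.000872). Acta2 and Col1a1 fell with these genes, as given beside Adm, and 7 of 8 astrocyte and all 6 microglial markers rose with those that rose. The part of such cells was not tested.

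**Figure D5:**
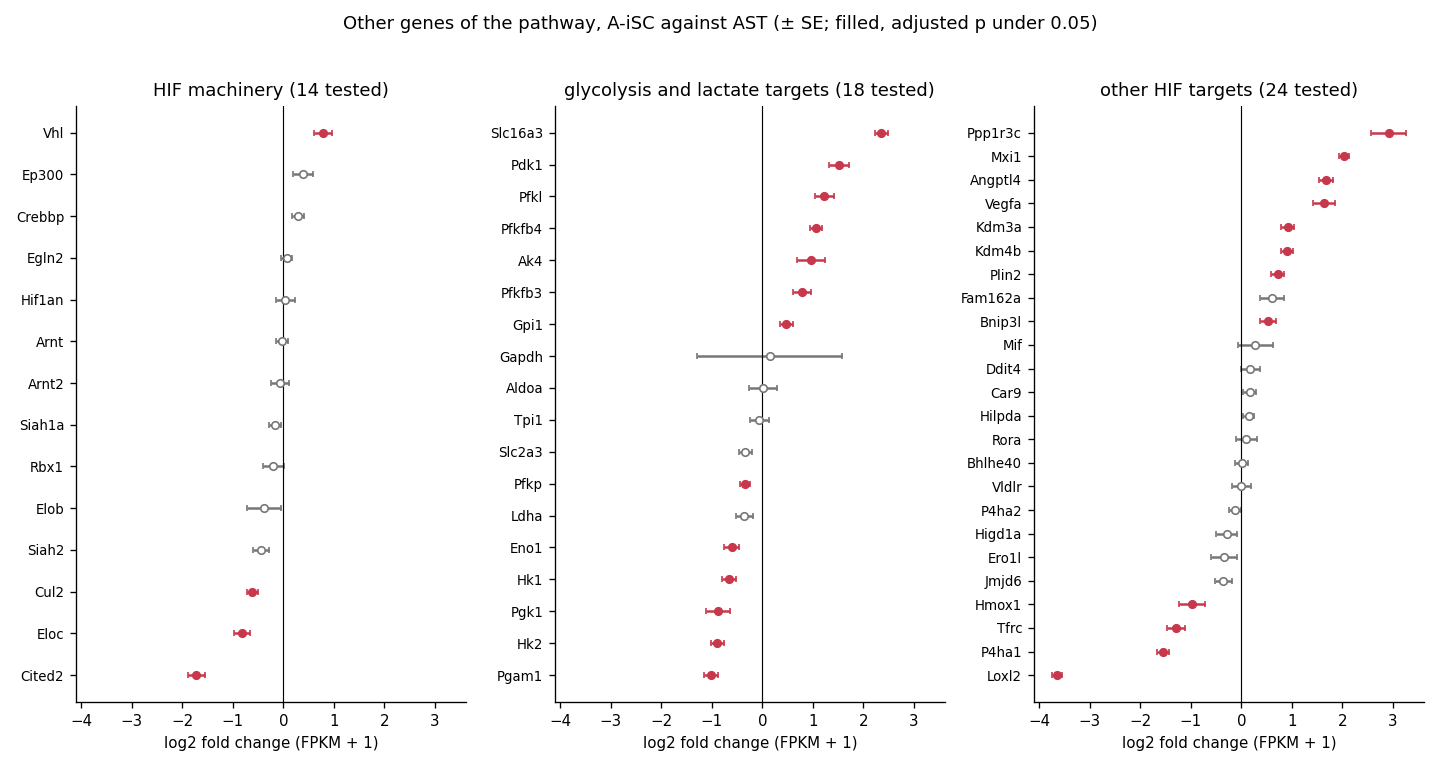
Each point is the log2 fold change of a gene in A-iSCs against ASTs on the log2(FPKM + 1) scale with its SE, filled where the limma adjusted p was under 0.05, for the HIF machinery (14 tested), glycolysis and lactate targets (18 tested) and other targets (24 tested). Called genes lie on both sides of 0 in each list, from -3.65 for Loxl2 to 2.92 for Ppp1r3c.

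Over the 12 samples, the members most alike were Epas1 and Ndrg1 (Pearson r = 0.985 of log2(FPKM + 1), n = 12), followed by Egln1 and Ndrg1 (0.945) and by Epas1 and Egln1 (0.931). Bnip3 ran with Slc2a1 at 0.711 and with Ankrd37 at 0.690. These values describe 4 groups of 3 libraries, whose members share their group. Among 13650 other protein-coding genes, Epas1 was closest to Habp4 (r = 0.994) and Susd5 (0.992), Ndrg1 to Plekhg3 (0.995) and Ldb3 (0.994), and Egln1 to Epb41l3 (0.980) and Grk5 (0.977). Adm was closest to Eva1c (0.996) and to Plaur, the urokinase receptor (0.995). Egln3 was closest to Osmr, the oncostatin M receptor (0.993), and to Cybb, the phagocyte oxidase subunit (0.988), and Ankrd37 was closest to Dok3 (0.969), a signalling adaptor of immune cells, and Poli (0.953). All 6 microglial markers rose from ASTs to A-iSCs, their sum going from 96.5 to 127 FPKM to between 1084 and 1495, and none of them was at 0. In P56-NPCs, where the sum was 435 to 458 FPKM, Egln3 was below its level in ASTs. The part of microglial cells in the levels of Egln3 and Ankrd37 was not tested. Bnip3 was closest to Ednrb, the endothelin B receptor (0.985), and Slc2a1 to Clu, clusterin (0.972), both genes of astrocytes, followed by Tcp11l2 (0.985) and Gsto2 (0.967). Of the astrocyte markers, 7 of 8 rose in A-iSCs and all 8 in P56-NPCs relative to ASTs, while in P0-NPCs 4 rose and 4 fell, and their part in the levels of Bnip3 and Slc2a1 was not tested. Hif1a was closest to Tcea1 (0.954) and Aco1 (0.944), and Hif3a to Kcnj13 (0.994) and Serpinb1b (0.990).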

How the data were processed

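Paired-end RNA sequencing (NEBNext Ultra libraries) of 12 samples in 4 groups of 3 was analysed from a single table. The authors deposited FPKM values per gene, with gene lengths in bases. The unit is not named in the table and was inferred from the values, which in every column were whole multiples of a step that scales with 1 over the gene length (100% within 0.1 of a whole fragment). The library size implied by that step was 0.744 to 1.22 times the sum of recovered fragments. The submitters' processing notes name Bowtie 0.12.2 and mm8, but the coordinates follow GRCm38: of 55154 IDs shared with GENCODE M21, 54899 had the same position, including all 10 members. The counting tool, its strand setting and the annotation release are not given in the sources used here.

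Groups were compared by limma 3.58.1 in R 4.3.3, with a trend on log2(FPKM + 1), on the 2 groups concerned, for genes with a mean of at least 1 FPKM in at least 1 of them, with Benjamini-Hochberg adjustment over all tested genes (threshold 0.05, two-sided). DESeq2, named in the study's methods, was not run, as the deposited unit is FPKM, and limma-voom on the recovered fragments was an alternative. The pathway genes named are the 3 highest and 3 lowest called log2 fold changes of each list in A-iSCs against ASTs, and the genes most alike are the 2 per member with the highest Pearson r. Vegfa and the genes given as not called were chosen after their values were seen. A gene of the list of other targets is not reported here, and the list was counted without it. The members and lists were chosen with earlier results of these data known. Intervals for Hif3a are exact conditional ones from summed fragments. Promoter windows are from RefSeq on GRCm38.p6. Of 2 rows named Aldoa, the higher was used. Alternatives were other scalings, filters, pseudocounts, thresholds and fits, and leaving out each sample. Computation and figures used Python 3.11.15, scipy 1.17.1 and matplotlib 3.10.9.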

Additional observations from a re-analysis of the deposited data

How the results depend on the processing

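Of 823 results for a member under an alternative, 760 kept direction and call, 49 kept the direction but no longer passed, 9 newly passed and 5 reversed. The stricter thresholds, the fit of all 4 groups and the replicate block return the fold change of the main fit. Under these alternatives only the call could change, not the direction. When an absolute log2 fold change over 1 was also required, fewer members were called in all 6 comparisons, a requirement that can only lower the count. The number fell from 8 to 6 in A-iSC, from 7 to 5 in P56-NPC and from 8 to 4 in P0-NPC against AST. It fell from 9 to 6 in A-iSC against P56-NPC, from 7 to 3 in A-iSC against P0-NPC and from 6 to 4 in P56-NPC against P0-NPC. With columns scaled by library size alone, the log2 fold change of Egln1 in P56-NPC against AST became -0.13, that of Hif1a became 0.21 in P0-NPC against AST and 0.30 in A-iSC against P56-NPC, and that of Slc2a1 in A-iSC against P56-NPC became 0.23; the first 3 were calls in neither setting and the cause was not tested. Hif1a in P0-NPC against AST ran from -0.21 to 0.0342 when each sample was left out, the positive value being without AST replicate 3. Scaling by library size moved the median of all genes by 0.19 in A-iSC against AST (4563 genes higher and 2989 lower, against 3550 and 4165), by -0.31 and 0.27 in P56-NPC and P0-NPC against AST (4569 and 7559 against 5924 and 6032, and 7106 and 4860 against 5713 and 6146), by 0.47 in A-iSC against P56-NPC (8329 and 2857 against 4532 and 4643) and by -0.53 in P56-NPC against P0-NPC (3438 and 9428 against 6115 and 6011). Upper-quartile scaling moved it by at most 0.13 in size. In A-iSC against AST no member changed direction under any alternative. With the replicate block 8, 7, 8, 8, 7 and 6 members were called in the 6 comparisons, against 8, 7, 8, 9, 7 and 6, the lost call being Slc2a1 in A-iSC against P56-NPC (adjusted p = 0.0678). Replicate numbers were shared between groups, and the labels name no link between same-numbered samples. Correlations of their deviations from the group means ran from -0.378 to 0.427, and in no comparison did every pair exceed 0.1. Between A-iSCs and ASTs they were -0.378, 0.335 and 0.427. With 3 samples in a group such correlations cannot show whether the samples were paired. Hif3a could not be fitted in 1 left-out analysis each of P0-NPC against AST and A-iSC against P0-NPC, where it fell under the filter. Counts under 30 fragments, as for Ankrd37 in ASTs and Hif3a in ASTs and A-iSCs, limit the precision of those values.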
